A study of Mus musculus with 11 samples.

Results

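Semaphorins, plexins and neuropilins were compared between 4 GFP reporter lines of the mouse dentate gyrus by way of 10 genes. These were the ligands Sema3a, Sema3c, Sema5a, Sema6a and Sema6d, the receptors Plxna2, Plxna4 and Plxnb1, and the co-receptors Nrp1 and Nrp2. These genes were chosen by name, with earlier results of these data known. Each was read by the array probe set that the platform annotation gives to that symbol alone. Where a gene had several, the one with the highest mean was used. All 10 were measured, each by 1 probe set, among 16527 genes kept by a filter on low values. RNA came from GFP-positive cells that were sorted from the microdissected dentate gyrus, a hippocampal region in which granule neurons are made throughout life, at postnatal day 35, with brains cut into slices of 750 µm. About 3000 to 5000 cells were obtained per group, and their RNA was amplified and put on 11 Affymetrix Mouse Gene 1.0 ST arrays. The series set out to find genes that may act in the development of the stem cell niche there, alongside imaging of living slices. All mice carried a GFP reporter, and the 4 lines differed in the gene that drives it or in how the reporter was placed. NesGFP mice (3 arrays) are transgenic for GFP under Nestin, whose protein is an intermediate filament of neural stem cells and is also made by cells of growing vessels. In kiTbr2GFP mice (3 arrays) GFP was placed into the Eomes locus itself, and in tgTbr2GFP mice (3 arrays) GFP was carried on an Eomes bacterial artificial chromosome. Eomes encodes Tbr2, a T-box transcription factor of intermediate neuronal progenitors. PomcGFP mice (2 arrays) are transgenic for GFP under Pomc, a reporter that in the dentate gyrus marks newborn granule neurons for a short time. The copy number of the knock-in allele, the sex and the number of animals behind each array are not given in the sources used here. No label says that arrays of a line came from different animals, so the p-values cover array-to-array spread alone, an unknown part of which could be technical.

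Semaphorins are guidance proteins that are either secreted, as class 3 is, or fixed to the membrane, and they steer axons, dendrites and migrating cells mainly by repulsion. Plexins are their transmembrane receptors and act on small GTPases and the cytoskeleton, while neuropilins bind most class 3 semaphorins and hand the signal to A-type plexins. In the hippocampus, Sema6a acting through Plxna2 and Plxna4 sets the layers in which granule cell axons, the mossy fibres, run, Sema5a acting through Plxna2 limits excitatory synapses on granule cells, and neuropilins also serve as co-receptors for vascular endothelial growth factor.

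Values are log2 RMA values, on which a difference of 1 is a doubling of signal, and levels are compared between lines and not between genes. Array medians were 7.0 to 7.15. Across genes, NesGFP arrays correlated with each other at 0.939 to 0.959 and with those of other lines at 0.766 to 0.839. Arrays from different lines among the other 3 correlated at 0.933 to 0.973, so NesGFP stood apart in every comparison in which it served. The second tgTbr2GFP array had a mean of 5.05 over 3 Y-linked genes, against 6.68 to 9.04 on the other arrays. In bulk samples of sorted cells, fewer cells of a type and less RNA per cell cannot be told apart.

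The first comparison set the mean of both Tbr2 lines against NesGFP, that is, cells with an active progenitor reporter against cells with a Nestin reporter. NesGFP arrays were also the highest for endothelial, mural, oligodendrocyte and astrocyte markers, as given below. The words rose and fell mean higher and lower than in the line compared against, and not a course along a lineage. Of the 10 genes, 7 were higher in the Tbr2 lines, 2 were lower and 1, Sema6d, did not pass limma's moderated test at a Benjamini-Hochberg adjusted p of 0.05. Sema3a, Sema3c, Sema5a, Plxna2, Plxna4, Nrp1 and Nrp2 rose, and Sema6a and Plxnb1 fell. Over all 16527 genes, 19.8% were higher and 29.1% were lower by the same rule, so the direction of most of these genes was the less common one. Their median log2 difference was 0.78, and that of all genes was -0.02. The 10 genes were chosen with earlier results of these data known, so these values are not an independent test of the family. Of 21 other semaphorins and plexins, 4 were higher and 8 lower in this comparison, with a median of -0.09. PomcGFP against NesGFP, which uses the same 3 NesGFP arrays and so is not a second independent test, gave the same counts for the 10 genes, 7 higher and 2 lower, with 15.9% of all genes higher and 24.0% lower. Their median difference was 1.23 there, beside 0.0050 for all genes. In limma's moderated F test over the 4 lines 9 of the 10 genes passed, as did 43.4% of all genes.

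The secreted ligands had the largest differences of the 10 genes between the Tbr2 lines and NesGFP. Sema3a, the repellent through which neuropilin-1 and A-type plexins collapse growth cones, stood at 6.14, 6.33 and 5.90 on the NesGFP arrays. It was at 8.15, 7.92 and 7.82 in kiTbr2GFP, at 8.31, 8.56 and 7.72 in tgTbr2GFP, and at 7.71 and 7.48 in PomcGFP. All NesGFP arrays lay below all others, the PomcGFP arrays lay below every Tbr2 array, and the Tbr2 lines overlapped. The log2 difference of the Tbr2 lines from NesGFP was 1.95 ± 0.17 (SE), a 3.87-fold higher signal (limma adjusted p = 3.35e-06), and that of PomcGFP from NesGFP was 1.47 ± 0.22 (SE; adjusted p = 0.000342). The third NesGFP array held Sema3a below its 25th percentile of 6.01, so the NesGFP level lies among the lower signals and is to be read with caution.

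Sema3c, a secreted ligand of both neuropilins that attracts as well as repels axons, was at 8.25, 8.88 and 8.53 in NesGFP. The kiTbr2GFP arrays read 10.91, 10.54 and 10.44, the tgTbr2GFP arrays 10.36, 10.34 and 10.09, and the PomcGFP arrays 10.64 and 10.55. NesGFP was again the low line with no overlap, and kiTbr2GFP and PomcGFP overlapped at the top. Sema3c was 3.71-fold higher in the Tbr2 lines, by 1.89 ± 0.15 (SE; limma adjusted p = 1.37e-06), and 4.12-fold higher in PomcGFP, by 2.04 ± 0.19 (SE; adjusted p = 1.17e-05). The promoter of Sema3c is shown because, of the promoters looked up for the genes that rose, it alone held one of the motifs searched. RefSeq's promoter table (GRCm38.p6) matched 8 of the 10 genes by symbol, with 9 promoters, and had none for Plxna4 and Sema6a, which were not searched. The 250 bases before the transcription start were read on both strands. Motifs were AGGTGT (reverse complement ACACCT), the core bound by T-box factors such as Tbr2, and CAGATG (reverse complement CATCTG) and CAGCTG (its own reverse complement), E-boxes of the kind proneural factors bind. No stretch of letters matches more than 1 of these motifs in full. In the sequence, which covers chr5:17574566-17574815 on the plus strand with a GC content of 78.4%, the capitals mark CAGATG, whose first base lies 200 bases before the start.
Sema3c: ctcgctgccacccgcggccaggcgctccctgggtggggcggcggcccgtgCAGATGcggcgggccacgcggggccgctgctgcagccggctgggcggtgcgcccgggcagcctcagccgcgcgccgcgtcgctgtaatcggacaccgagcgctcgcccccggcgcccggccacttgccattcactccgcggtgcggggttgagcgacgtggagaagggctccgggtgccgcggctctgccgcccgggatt
CAGATG occurred in 1 of the 9 promoters and in 14.4% of the 32851 promoters of the table, and CAGCTG in 0 of 9 and 13.0%. A match describes these letters and not a bound site.

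Among the transmembrane ligands, Sema5a rose, Sema6a fell and Sema6d did neither. Sema5a carries thrombospondin repeats beside its semaphorin domain. Its levels were 8.80, 9.13 and 9.18 in NesGFP, 9.83, 9.73 and 9.58 in kiTbr2GFP, 10.001, 10.083 and 9.794 in tgTbr2GFP, and 10.60 and 10.32 in PomcGFP. The order ran from NesGFP up to PomcGFP, with no overlap at either end and overlap between the Tbr2 lines in the middle. Against NesGFP, Sema5a was 1.74-fold higher in the Tbr2 lines (0.80 ± 0.12 SE on the log2 scale; limma adjusted p = 0.000203) and 2.69-fold higher in PomcGFP (1.43 ± 0.16 SE; adjusted p = 3.47e-05).

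Sema6a, the class 6 ligand of Plxna2 and Plxna4, was the ligand that fell. It stood at 9.81, 10.29 and 9.90 in NesGFP, at 8.22, 8.25 and 7.86 in kiTbr2GFP, at 8.62, 8.44 and 8.13 in tgTbr2GFP, and at 8.48 and 8.41 in PomcGFP. NesGFP lay above all other arrays, and the remaining lines overlapped with their neighbours in the order. The signal was 3.36-fold lower in the Tbr2 lines (-1.75 ± 0.15 SE; limma adjusted p = 2.07e-06) and 2.93-fold lower in PomcGFP (-1.55 ± 0.19 SE; adjusted p = 6.79e-05). Its 2 receptors in the list moved in the opposite direction, as given below.

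Sema6d, a class 6 ligand best known as a partner of Plxna1, was near the same level in each line. Its values were 10.48, 10.57 and 10.25 in NesGFP, 10.60, 10.54 and 10.48 in kiTbr2GFP, 10.57, 10.12 and 10.22 in tgTbr2GFP, and 10.60 and 10.57 in PomcGFP. All neighbours in the order overlapped, and the F test over the 4 lines gave an adjusted p of 0.350 in limma. The 95% interval of its log2 difference ran from -0.26 to 0.24 for the Tbr2 lines against NesGFP and from -0.17 to 0.48 for PomcGFP against NesGFP, so a change as large as that of the other ligands lies outside both. Of the 9 promoters, 1 of the 2 listed for Sema6d was the only one with the T-box core, and it is shown for that reason. The core occurred in 11.8% of all promoters in the table. The sequence covers chr2:124089719-124089968 on the plus strand with a GC content of 52.4%, and the capitals mark ACACCT, whose first bases lie 238 and 104 bases before the start.
Sema6d: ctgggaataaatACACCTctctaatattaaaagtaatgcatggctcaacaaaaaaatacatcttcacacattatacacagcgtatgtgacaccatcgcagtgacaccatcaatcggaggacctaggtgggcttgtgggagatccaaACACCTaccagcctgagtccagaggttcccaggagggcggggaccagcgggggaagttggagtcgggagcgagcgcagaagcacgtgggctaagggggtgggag
The promoters of the other genes looked up held no such match, which says only that these letters are not in these windows.

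**Figure D1:**
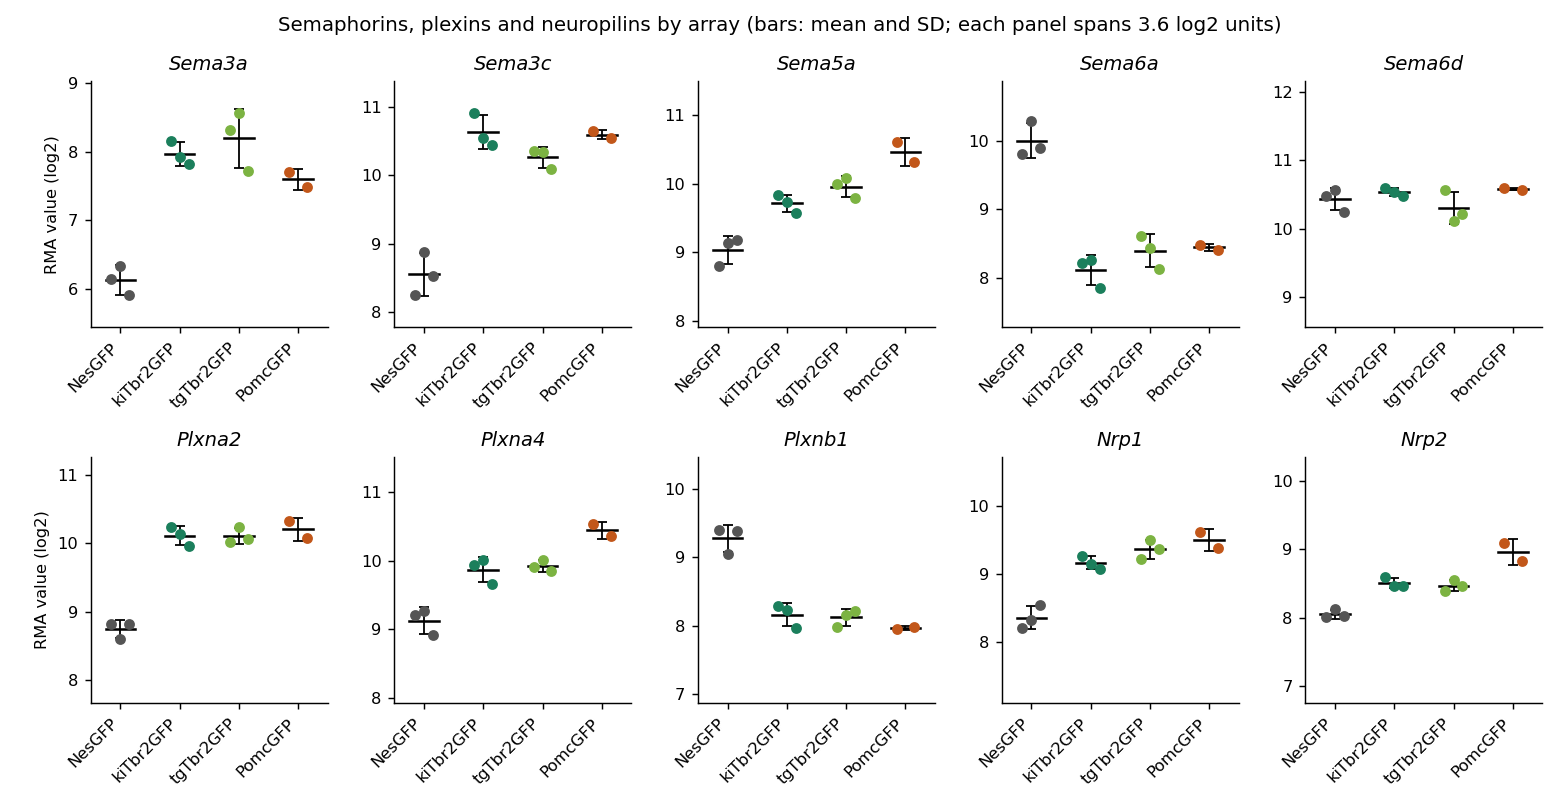
Log2 RMA value (y axis; each panel spans the same number of log2 units) of each gene on every array, by reporter line (x axis); points are arrays, horizontal lines are line means and bars are SD. For Sema3a the NesGFP arrays read 5.90 to 6.33 and all others 7.48 or more, while for Sema6d neighbouring lines overlap.

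Of the plexins, both A-type receptors rose and Plxnb1 fell. Plxna2, the receptor for Sema6a and Sema5a in the hippocampus, was at 8.82, 8.60 and 8.81 in NesGFP, 10.23, 10.14 and 9.96 in kiTbr2GFP, 10.01, 10.23 and 10.07 in tgTbr2GFP, and 10.33 and 10.08 in PomcGFP. NesGFP lay below with a wide gap and the other 3 lines overlapped. The Tbr2 lines were 2.57-fold above NesGFP (1.36 ± 0.11 SE; limma adjusted p = 1.25e-06) and PomcGFP was 2.75-fold above it (1.46 ± 0.14 SE; adjusted p = 1.14e-05).

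Plxna4, which binds Sema6a directly and class 3 semaphorins through neuropilins, read 9.20, 9.27 and 8.91 in NesGFP, 9.94, 10.01 and 9.66 in kiTbr2GFP, 9.91, 10.02 and 9.85 in tgTbr2GFP, and 10.53 and 10.36 in PomcGFP. Like Sema5a it had 3 separate levels, with NesGFP at the bottom, the Tbr2 lines overlapping in the middle and PomcGFP on top. It was 1.70-fold higher in the Tbr2 lines (0.77 ± 0.12 SE; limma adjusted p = 0.00019) and 2.49-fold higher in PomcGFP (1.32 ± 0.15 SE; adjusted p = 4.35e-05) than in NesGFP.

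Plxnb1 is the receptor for the class 4 ligand Sema4d. Its arrays read 9.39, 9.05 and 9.38 in NesGFP, 8.29, 8.22 and 7.97 in kiTbr2GFP, 7.98, 8.16 and 8.22 in tgTbr2GFP, and 7.94 and 7.98 in PomcGFP. NesGFP was the high line without overlap. Plxnb1 was 2.19-fold lower in the Tbr2 lines (-1.13 ± 0.11 SE; limma adjusted p = 8.70e-06) and 2.48-fold lower in PomcGFP (-1.31 ± 0.15 SE; adjusted p = 4.08e-05).

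Both neuropilins rose. Nrp1, the co-receptor of Sema3a, stood at 8.21, 8.33 and 8.55 in NesGFP, 9.27, 9.15 and 9.08 in kiTbr2GFP, 9.22, 9.49 and 9.36 in tgTbr2GFP, and 9.61 and 9.39 in PomcGFP. Its levels were lowest in NesGFP, and the other lines overlapped with their neighbours. The difference from NesGFP was 0.90 ± 0.11 (SE; 1.86-fold; limma adjusted p = 3.81e-05) for the Tbr2 lines and 1.14 ± 0.14 (SE; 2.20-fold; adjusted p = 8.00e-05) for PomcGFP.

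Nrp2, the co-receptor that favours Sema3f and Sema3c, had the smallest difference of the 9 genes that passed. It read 8.01, 8.13 and 8.02 in NesGFP, 8.59, 8.47 and 8.47 in kiTbr2GFP, 8.39, 8.55 and 8.47 in tgTbr2GFP, and 9.09 and 8.82 in PomcGFP. Lines separated into 3 levels, NesGFP, then both Tbr2 lines overlapping, then PomcGFP. The Tbr2 lines were 1.35-fold (0.44 ± 0.09 SE; limma adjusted p = 0.00215) and PomcGFP was 1.87-fold (0.90 ± 0.12 SE; adjusted p = 0.000128) above NesGFP. Nrp2 had an identical value on 3 of the Tbr2 arrays, and repeated values occur in 11355 of the 28858 probe sets of the deposited table, so its spread within the Tbr2 lines may be understated.

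The next comparison asked how cells with the Pomc reporter of newborn granule neurons differ from cells with a Tbr2 reporter. Of the 10 genes 3 were higher in PomcGFP and 0 lower, beside 2.0% of all genes higher and 1.73% lower. Sema5a was 1.55-fold higher (0.63 ± 0.14 SE; limma adjusted p = 0.0297), Nrp2 1.38-fold (0.47 ± 0.11 SE; adjusted p = 0.034) and Plxna4 1.46-fold (0.55 ± 0.13 SE; adjusted p = 0.0455), and both PomcGFP arrays lay above all 6 Tbr2 arrays for each of them. With a block for the replicate number in the fit, 0 of the 10 genes passed. The limma adjusted p there was 0.0867 for Sema5a, 0.0568 for Plxna4 and 0.0761 for Nrp2. The 3 calls made without the block lie near the threshold. Leaving out any 1 of 5 arrays (kiTbr2GFP 2 or 3, PomcGFP 1 or 2, tgTbr2GFP 3) left 0 of the 10 genes past it, leaving out tgTbr2GFP 1 or 2 left 1, and the differences kept their sign. Plxna4 also lost its call without kiTbr2GFP 1 (adjusted p = 0.0747), with median centring (adjusted p = 0.0784) and with the Y-linked covariate (adjusted p = 0.0669), and Nrp2 with an intensity trend and a robust prior (adjusted p = 0.0555). Sema3a differed by -0.48 ± 0.20 (SE) without passing (adjusted p = 0.303), although its PomcGFP arrays lay below all Tbr2 arrays, with a 95% interval from -0.92 to -0.04. The other 6 genes gave adjusted p-values from 0.504 (Nrp1) to 0.917 (Plxna2). For Plxna2 the interval of the difference ran from -0.17 to 0.36, and for Sema3c, at 0.15, from -0.23 to 0.53.

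Between the Tbr2 lines 0 of the 10 genes passed in either direction, beside 0.436% of all genes higher and 0.684% lower in kiTbr2GFP than in tgTbr2GFP. The smallest adjusted p in limma was 0.569, for Sema3c, which was higher in kiTbr2GFP by 0.37 ± 0.17 (SE) with no overlap of arrays and an interval from -0.01 to 0.74. Sema6a, with -0.29 and an interval from -0.66 to 0.08, and Sema5a, with -0.25 and an interval from -0.55 to 0.06, overlapped. With arrays weighted by their quality in the fit, Sema6d alone passed, higher in kiTbr2GFP by 0.34 (limma adjusted p = 0.0294). In that fit 561 of 16527 genes were higher in kiTbr2GFP and 832 were lower. Over all alternatives the Sema6d difference ran from 0.04 to 0.37.

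**Figure D2:**
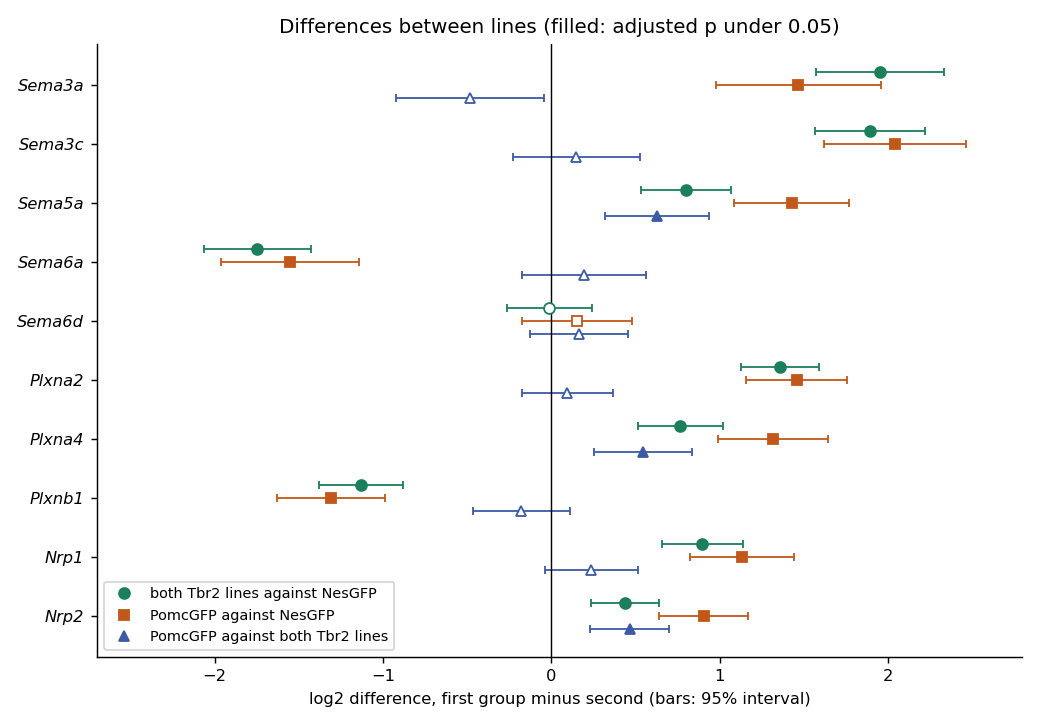
Log2 difference of each gene (x axis, first group minus second) in 3 comparisons; points are limma estimates, bars are 95% intervals and filled points passed at an adjusted p of 0.05. Sema6a (-1.75 and -1.55) and Plxnb1 (-1.13 and -1.31) lie left of 0 in both comparisons with NesGFP, Sema6d crosses 0 in each, and for PomcGFP against the Tbr2 lines Sema5a, Plxna4 and Nrp2 are filled.

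All 21 other semaphorins and plexins listed were measured. Of these, 4 were higher in the Tbr2 lines than in NesGFP, 8 were lower and 9 did not pass, with a median of -0.09, beside 19.8% of all genes higher and 29.1% lower. For PomcGFP against NesGFP the counts were 3 higher, 7 lower and 11 not past the test, with a median of -0.03, beside 15.9% and 24.0% of all genes. The A-type plexins of the list split in the Tbr2 lines, with Plxna1 lower by a difference of -0.27 ± 0.09 (SE; limma adjusted p = 0.0283) and Plxna3 higher by 0.28 ± 0.11 (SE; adjusted p = 0.0436), both named after their values were seen. Of the 21, 0 passed in PomcGFP against the Tbr2 lines, beside 2.0% of all genes higher and 1.73% lower. Between the Tbr2 lines 0 of the 21 passed, beside 0.436% of all genes higher and 0.684% lower in kiTbr2GFP. With shares this low, a count of 0 in 21 genes says little.

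On the lower side, Sema4d, the ligand of Plxnb1, was at 9.97, 9.81 and 9.71 on the NesGFP arrays and between 7.63 and 8.25 on all others. Its difference was -2.04 ± 0.12 (SE; limma adjusted p = 1.89e-07) in the Tbr2 lines and -1.77 ± 0.15 (SE; adjusted p = 7.32e-06) in PomcGFP. A second Sema4d probe set gave smaller differences of the same sign, -0.74 and -0.67. It had the higher mean once NesGFP 1 or 2 was left out. The Tbr2 difference was then -0.91 (limma adjusted p = 0.0154) and -0.83 (adjusted p = 0.0302), and the PomcGFP difference, -0.84 and -0.76, did not pass (adjusted p = 0.0607 and 0.10). Sema4d and its receptor Plxnb1 were thus both highest in NesGFP.

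Plxnb3, a receptor for Sema5a, read 8.36, 8.81 and 8.42 in NesGFP and 7.27 or less elsewhere, and fell by 1.57 ± 0.13 (SE; limma adjusted p = 2.04e-06) in the Tbr2 lines, whereas its ligand Sema5a rose. Plxnb2, a receptor for class 4 semaphorins, differed by -1.54 ± 0.14 (SE; adjusted p = 1.06e-05) in PomcGFP, where it read 7.06 and 7.02 against 8.41 to 8.78 in NesGFP. Sema7a, a lipid-anchored ligand that signals through Plxnc1 and integrins, was at 10.18, 10.15 and 10.40 in NesGFP and at 8.82 or less in the other lines. Its differences were -1.75 ± 0.10 (SE; adjusted p = 1.36e-07) in the Tbr2 lines and -1.50 ± 0.13 (SE; adjusted p = 5.98e-06) in PomcGFP.

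On the higher side, Sema3e, a ligand that binds Plxnd1 without a neuropilin, was at 6.85, 6.40 and 6.80 in NesGFP, 7.44 to 7.77 in the Tbr2 lines, and 8.27 and 7.46 in PomcGFP. Sema3e rose by 0.82 ± 0.17 (SE; limma adjusted p = 0.00175) in the Tbr2 lines and by 1.18 ± 0.22 (SE; adjusted p = 0.00122) in PomcGFP, the latter 0.78 without PomcGFP 1 (adjusted p = 0.0166). Sema4g, a class 4 membrane ligand, rose by 0.60 ± 0.10 (SE; adjusted p = 0.000365) and 0.61 ± 0.13 (SE; adjusted p = 0.00284) in the same comparisons. Plxnc1, the receptor of Sema7a, was higher in the Tbr2 lines by 0.42 ± 0.15 (SE; adjusted p = 0.033), and this call was lost under 9 of 21 alternatives, among them leaving out kiTbr2GFP 1 or 2, NesGFP 2 or 3, or tgTbr2GFP 1 or 2 (adjusted p = 0.0645 to 0.129). Sema4f was higher in PomcGFP by 0.71 ± 0.18 (SE; adjusted p = 0.0078), which did not hold without PomcGFP 1 (adjusted p = 0.105).

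**Figure D3:**
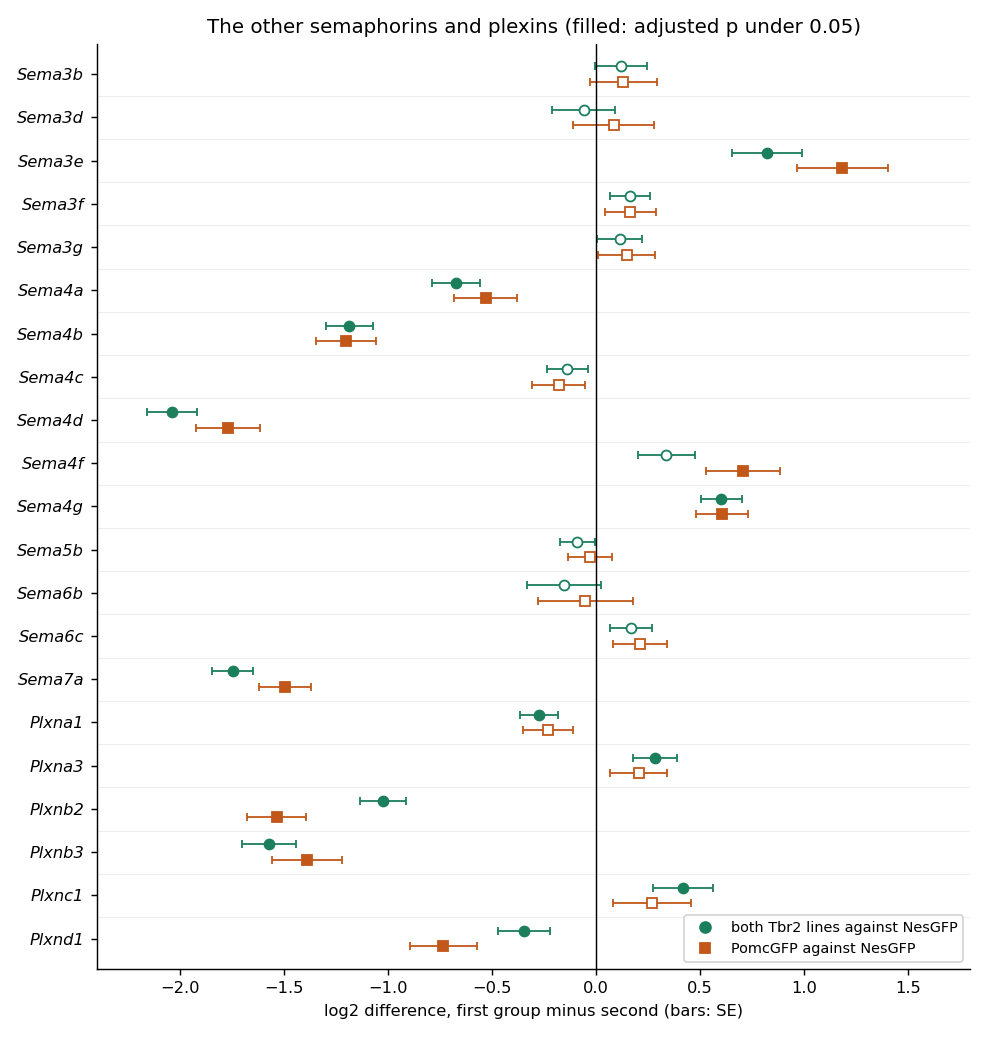
Log2 difference (x axis) of the 21 other semaphorins and plexins in the 2 comparisons with NesGFP, which share the NesGFP arrays; bars are SE and filled points passed at an adjusted p of 0.05. Sema4d (-2.04 and -1.77) lies farthest left and Sema3e (0.82 and 1.18) farthest right in both.

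Partners of semaphorin signalling inside the cell and at the membrane were taken from a fixed list of 36 genes, of which 34 were measured. In the Tbr2 lines 4 were higher and 16 lower than in NesGFP, with a median of -0.24, beside 19.8% and 29.1% of all genes. In PomcGFP 5 were higher and 12 lower, with a median of -0.16, beside 15.9% and 24.0% of all genes. Chl1, an L1-family adhesion molecule that partners with Nrp1 in the response to Sema3a, read 8.02, 8.21 and 7.59 in NesGFP, 10.62, 10.50 and 10.49 in kiTbr2GFP, 9.71, 9.87 and 9.50 in tgTbr2GFP, and 10.66 and 10.62 in PomcGFP. It rose by 2.18 ± 0.14 (SE; limma adjusted p = 2.60e-07) in the Tbr2 lines and by 2.70 ± 0.17 (SE; adjusted p = 1.29e-06) in PomcGFP. L1cam, the adhesion molecule that joins Nrp1 in the Sema3a receptor, rose by 0.53 ± 0.12 (SE; adjusted p = 0.0026) and 0.65 ± 0.15 (SE; adjusted p = 0.0051), the latter 0.42 and not past the test without PomcGFP 1 (adjusted p = 0.0824). Gsk3b, a kinase that acts on the cytoskeletal protein Crmp2 after Sema3a, rose by 1.10 ± 0.12 (SE; adjusted p = 1.56e-05) in the Tbr2 lines and 0.86 ± 0.15 (SE; adjusted p = 0.00101) in PomcGFP.

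Other partners fell. Rras, a small GTPase switched off by plexins, was at 10.13, 9.16 and 9.16 in NesGFP and at 7.06 to 7.40 elsewhere. It fell by 2.22 ± 0.19 (SE; limma adjusted p = 2.65e-06) in the Tbr2 lines and by 2.33 ± 0.25 (SE; adjusted p = 2.72e-05) in PomcGFP. Cdk5, the kinase that primes Crmp2, fell by 1.72 ± 0.26 (SE; adjusted p = 0.000194) in the Tbr2 lines, where it ranged from 7.61 to 8.59, against 10.17, 10.11 and 9.14 in NesGFP. Gipc1, an adaptor that binds the neuropilin tail, differed by -1.54 ± 0.36 (SE; adjusted p = 0.0056) in PomcGFP. The third NesGFP array read 9.40 for Gipc1 and the first pair 7.99 and 7.77, and the call did not hold without PomcGFP 2 (adjusted p = 0.0535) or with these lines fitted alone (adjusted p = 0.0623).

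In PomcGFP against the Tbr2 lines 3 partners were higher and 0 lower, with a median of 0.06. Of all genes, 2.0% were higher and 1.73% lower there. Nrcam, an L1-family molecule that partners with Nrp2, was higher by 1.17 ± 0.17 (SE; limma adjusted p = 0.00244). It read 9.81 and 9.64 in PomcGFP, 8.35, 8.07 and 8.06 in kiTbr2GFP, and 9.30, 8.63 and 8.88 in tgTbr2GFP. The call did not hold without PomcGFP 1 (adjusted p = 0.0592). Nrcam read 9.12, 9.36 and 9.09 in NesGFP, from which the Tbr2 lines differed by -0.64 ± 0.14 (SE; limma adjusted p = 0.00319) and PomcGFP by 0.53 ± 0.19 (SE; adjusted p = 0.0404). Rras2 was higher by 1.16 ± 0.27 (SE; adjusted p = 0.0376) and Mical2, an actin-oxidising enzyme of plexin signalling, by 0.63 ± 0.13 (SE; adjusted p = 0.0221). Rras2 lost its call under 7 of 21 alternatives, which include leaving out kiTbr2GFP 2 or 3, either PomcGFP array, or tgTbr2GFP 2 or 3, and Mical2 without kiTbr2GFP 3, PomcGFP 1, PomcGFP 2 or tgTbr2GFP 2 (adjusted p = 0.0522 to 0.200). Between the Tbr2 lines 1 partner, Chl1, was higher in kiTbr2GFP, beside 0.436% of all genes higher and 0.684% lower. Its difference was 0.84 ± 0.16 (SE; limma adjusted p = 0.0292), a call lost without any 1 of 7 arrays.

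Neuropilins also serve VEGF, and all 7 ligands and receptors on a list for it were measured. Of these 0 were higher, 5 were lower and 2 did not pass in the Tbr2 lines against NesGFP, with a median of -0.80, beside 29.1% of all genes lower. In PomcGFP 0 were higher, 5 were lower and 2 did not pass, with a median of -0.81, beside 24.0% of all genes lower. Kdr, the VEGF receptor that pairs with Nrp1 in endothelium, was at 9.68, 9.46 and 9.29 in NesGFP and at 7.04 or less in the other lines, and fell by 3.20 ± 0.18 (SE; limma adjusted p = 1.31e-07) in the Tbr2 lines. Flt1, the decoy receptor, fell by 3.74 ± 0.19 (SE; adjusted p = 6.74e-08) and Vegfc, a lymphatic and endothelial growth factor, by 1.07 ± 0.13 (SE; adjusted p = 2.94e-05). In PomcGFP the differences were -2.89 for Kdr, -2.95 for Flt1 and -0.99 for Vegfc, each past the test. Nrp1 thus rose in the samples in which its VEGF partner Kdr fell.

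Markers of other cell types moved with the comparisons that involve NesGFP. Of all genes, 29.1% were lower in the Tbr2 lines than in NesGFP, and 24.0% were lower in PomcGFP than in NesGFP. The mean log2 value of 10 endothelial markers was 9.71 to 9.92 on NesGFP arrays, 6.33 to 6.62 in kiTbr2GFP, 6.41 to 7.29 in tgTbr2GFP and 7.0 to 7.38 in PomcGFP, and 10 of 10 were lower in both comparisons with NesGFP. Emcn, Tek and Slco1a4 lay below the 25th percentile on every kiTbr2GFP array. The 9 mural markers (9.51 to 9.60 in NesGFP, 6.89 to 7.49 elsewhere) and the 9 astrocyte markers (10.62 to 10.74 in NesGFP, 8.13 to 9.31 elsewhere) all passed as lower in both, as did the 8 oligodendrocyte precursor markers (9.25 to 9.40 in NesGFP, 7.22 to 7.88 elsewhere). Of the 8 oligodendrocyte markers measured of 9 listed, 8 were lower in the Tbr2 lines and 5 in PomcGFP. Their mean was 10.66 to 10.83 in NesGFP, 7.25 to 7.97 in kiTbr2GFP, 7.30 to 9.21 in tgTbr2GFP and 8.98 to 9.03 in PomcGFP. Of 6 meningeal fibroblast markers measured of 7 listed, 3 were lower in each comparison. The part of these cell types in the falls of Sema6a, Plxnb1, Sema4d, Sema7a and Plxnb3, and in the rises of the other genes relative to NesGFP, was not tested.

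Markers of the neurogenic lineage differed between the lines as well. Of all genes, 19.8% were higher and 29.1% lower in the Tbr2 lines than in NesGFP. In PomcGFP against the Tbr2 lines 2.0% were higher and 1.73% lower. In kiTbr2GFP against tgTbr2GFP 0.436% were higher and 0.684% lower. Of 9 granule neuron markers 6 were higher and 1 lower in the Tbr2 lines than in NesGFP, with array means of 8.94 to 9.08 in NesGFP and 9.91 to 10.25 elsewhere. In PomcGFP against the Tbr2 lines 1 of the 9 was higher, 1 was lower and 7 did not pass, with a median of -0.27. Of 7 intermediate progenitor markers, which include Eomes, 5 were higher and 1 lower, and 4 were lower in PomcGFP than in the Tbr2 lines. Of 8 stem cell markers 7 were lower in the Tbr2 lines, from 9.29 to 9.64 in NesGFP to 8.14 to 8.43, and Nes lay below the 25th percentile on every tgTbr2GFP and PomcGFP array. Of 6 dividing-cell markers measured of 7 listed, 5 were higher in the Tbr2 lines than in NesGFP, 5 were lower in PomcGFP than in the Tbr2 lines, and 4 were higher in kiTbr2GFP than in tgTbr2GFP. Of 6 Cajal-Retzius markers, of an early-born neuron that also makes Tbr2, 4 were higher in the Tbr2 lines and 2 were lower in PomcGFP than in them. Beside the rises of Sema5a, Plxna4 and Nrp2 in PomcGFP over the Tbr2 lines stood 3 of 7 microglia markers measured of 8 listed (means of 7.56 to 7.57 in PomcGFP against 6.75 to 7.21) and 2 of 8 oligodendrocyte markers that were higher. Their part in these rises was not tested.

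**Figure D4:**
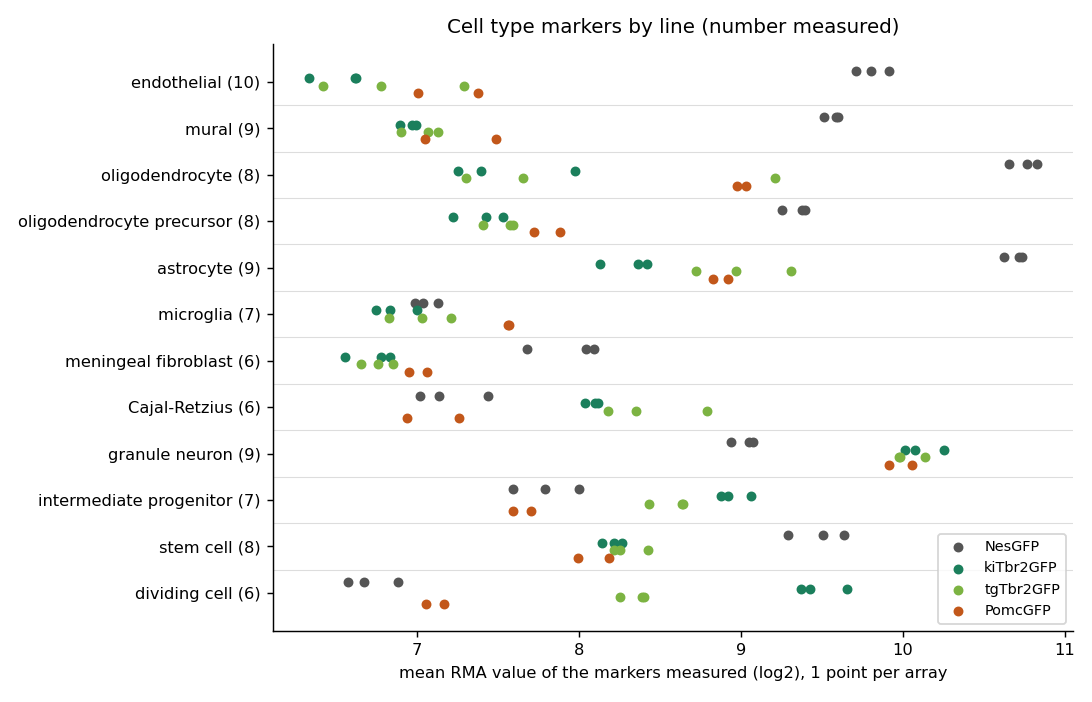
Mean log2 RMA value (x axis) of the measured markers of each cell type (rows, number measured in brackets) on every array; each point is 1 array, coloured by line. NesGFP arrays are highest for endothelial (9.71 to 9.92), mural, oligodendrocyte, precursor and astrocyte markers, and lowest for granule neuron markers (8.94 to 9.08).

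Genes whose profile over the 11 arrays was most like that of each of the 10 were listed by Pearson's r, as a description. All 11 arrays enter each r, NesGFP included, and r within the other lines was not computed. The gene most like Plxna2 was Prox1 (r = 0.995), the homeodomain factor that sets granule cell fate, then Ttc3 (0.992). Sema3a was most like Kansl1l (0.984) and Zfp654 (0.982), and Sema3c most like Ttc37 (0.993) and U2surp (0.990). Sema5a went with Synj1 (0.975), a phosphatase of synaptic vesicle recycling, and Mmp16 (0.970), and Plxna4 with Ppp3cb (0.977), a calcineurin subunit, and Atp2b1 (0.976), a calcium pump. Nrp1 was closest to Tanc2 (0.985) and Cacna1b (0.976), a presynaptic calcium channel subunit, and Nrp2 to Fam169a (0.965) and Cblb (0.960). On the falling side, Sema6a was closest to Slc14a1 (0.992), a urea transporter, and Aplp2 (0.991), and Plxnb1 to Eif3i (0.987) and Sec61a1 (0.986). Sema6d, which did not pass, had the lowest likeness, with Y-linked Uty (0.857) and Minar2 (0.850) as nearest genes.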

How the data were processed

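The deposited table holds 1 log2 value per probe set and array, which the authors made with RMA (background correction, normalization and probe summary) in oligo, per the submitters' processing notes; versions and settings are not given in the sources used here. Of 28858 probe sets 21789 had a single symbol in the platform annotation. A probe set was kept when above its array's 25th percentile on at least 2 arrays, and the highest-mean set stood for a gene (16527 genes). Sema3a passed that filter on 10 arrays and the other 9 genes on 11. All 10 symbols matched RefSeq by Entrez number.

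With limma 3.58.1 (R 4.3.3), 1 model with a mean for each of the 4 lines took in all 11 arrays, which left 7 residual and 4.22 prior degrees of freedom. Tests were two-sided, with Benjamini-Hochberg adjustment over all genes and a threshold of 0.05. RMA can compress low signals, which understates differences there, and the number of arrays limits precision. The fit was also run on simulated data with independent noise and few changed genes, so that run says little about the calls made here. Tables and figures used Python 3.11.15, pandas 2.3.3, numpy 2.4.6 and matplotlib 3.10.9.

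No label says whether array numbers pair the samples. Of 15 same-numbered pairs of arrays across lines, 4 had deviations from their line means that correlated over 0.1 (range -0.11 to 0.26). The highest was kiTbr2GFP 3 with tgTbr2GFP 3. These correlations cannot settle whether same-numbered arrays share a batch, so the main fit had no replicate block and the block was run as an alternative.

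Alternatives were no filter and a filter at the 50th percentile, the mean of probe sets, cyclic loess, median centring, array weights, a robust prior with an intensity trend, a replicate block, the compared lines fitted alone, a Y-linked covariate, and leaving out each array. The 10 genes, lists and tests were chosen with earlier results of these data known. Named list genes are, per comparison, up to 3 of the largest positive and 3 of the largest negative differences past the test; likeness names the 2 highest r without predicted and small RNA genes.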

Additional observations from a re-analysis of the deposited data

Results flagged for a closer look

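Chl1, the adhesion partner of Nrp1, differed between the lines that report the same gene. It was higher in kiTbr2GFP than in tgTbr2GFP by 0.84 ± 0.16 (SE) on the log2 scale (limma adjusted p = 0.0292), with all 3 kiTbr2GFP arrays above all 3 tgTbr2GFP arrays. In the same comparison 3 of 9 astrocyte markers were lower (median of the 9, -0.65) and 4 of 6 dividing-cell markers were higher (median 1.17). Of all genes, 0.684% were lower and 0.436% higher there. The part of these markers in the Chl1 difference was not tested. The direction held in all alternatives run. The call was lost with the Y-linked covariate (adjusted p = 0.0863) and without any 1 of 7 arrays (adjusted p = 0.0521 to 0.130), namely kiTbr2GFP 1, 2 or 3, tgTbr2GFP 1 or 3, and PomcGFP 1 or 2.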

How the results depend on the processing

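For the 10 genes against NesGFP, 9 passed in the Tbr2 lines and 9 in PomcGFP under each of the 21 alternatives, and the 9 that passed gave 189 of 189 calls kept in each comparison. The F test also passed 9 under each alternative it was run with; it was not run with the compared lines alone. In PomcGFP against the Tbr2 lines the count of 3 became 0 with the replicate block, which changed no other count of calls among the 10 genes, and ranged from 0 to 3 over the arrays left out in turn. Across that comparison 26 of 63 calls were lost and 0 changed sign. Adjusted p-values over the alternatives ran from 0.0041 to 0.378 for Sema5a, 0.0132 to 0.414 for Plxna4 and 0.00506 to 0.442 for Nrp2. Between the Tbr2 lines the count of 0 became 1 with array weights. Values with no call changed sign 16 times in 6 results, all near 0, and the cause was not tested. For Sema6d, Tbr2 lines against NesGFP, cyclic loess gave 0.0978 and leaving out an array -0.102 to 0.056. For Plxna2, PomcGFP against the Tbr2 lines, leaving out an array gave -0.0246 to 0.217. Between the Tbr2 lines array weights gave -0.0482 for Plxna2 and -0.0311 for Nrp2, and leaving out an array gave -0.0536 to 0.0822 for Plxna2, -0.0277 to 0.136 for Plxnb1 and -0.124 to 0.050 for Plxna4. Over all genes, calls in PomcGFP against the Tbr2 lines moved from 617 to 1624 with array weights, 1022 with these lines fitted alone, 174 without PomcGFP 1 and 228 without PomcGFP 2, and those between the Tbr2 lines from 185 to 1393 with array weights and 68 to 85 without kiTbr2GFP 1, 2 or 3 or tgTbr2GFP 1 or 3. The share higher among calls between the Tbr2 lines was 38.9% and became 22.7% with the Y-linked covariate and 59.4% without kiTbr2GFP 3. Of the 10 genes only Sema3a came below the 25th percentile of an array, on 1 NesGFP array.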
